A study of Avicennia germinans with 18 samples.

Results

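Organ-restricted transcripts with the prefix non_cod were followed across leaves, stems and roots of seedlings of the mangrove tree Avicennia germinans. Of the 47821 transcripts counted, 17967 carry this prefix in their identifier. The 150 of these with the highest mean level over the 9 humid libraries were set aside, which left 17817 candidates. Levels are in CPM, the counts divided by the library total and multiplied by 1000000. For each organ, the 60 candidates with the largest log2 ratio of the humid organ mean to the larger of the other humid organ means, with 1 CPM added to both, were taken as its members. This gave 180 members, and no transcript is in more than 1 list. The members were thus chosen by their humid levels. These are given as a description, and only the 9 arid libraries, which the rule did not use, allow a test between organs.

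The seedlings had germinated and grown in the field, 3 in a humid and 3 in an arid forest that differ in freshwater, salt, light and temperature. Before harvest all were held for 72 hours in 3 L pots with soil from a mangrove, in shade and with ample water, so humid and arid name the forest of origin and not a treatment in the pots. Leaf, stem and root of each seedling were sequenced as 1 library each, which makes 6 groups of 3 libraries. Libraries of different organs with 1 number and 1 forest were read as the same seedling. The protocol repeats 1 series of 6 barcodes over 3 sets of names, which calls for 3 sequencing pools. If a set held 1 organ, organ and pool cannot be told apart.

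Library totals ranged from 3.07 to 23.7 M reads, the lowest in humid root 2 and the highest in humid leaf 3. A count of 0 allows a level of up to 3 counts, which is between 0.127 and 0.979 CPM depending on the library and covers counting error only. The arid root libraries were not equally distinct from shoots. Of transcripts without the prefix, 219 had a humid leaf mean from 50 CPM up that exceeded the humid root mean by 20-fold or more. Their median level as a share of the own leaf was 51%, 1.81% and 12.8% for arid roots 1, 2 and 3. The 94 such transcripts of stems had medians of 50.3%, 6.33% and 31.4% of the own stem. The 61 transcripts typical of humid roots had medians of 7.09%, 26% and 8.5% of the humid root mean.

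In plants, transcripts without a long open reading frame include long non-coding RNAs, precursors of small RNAs and, in assembled transcript sets, pieces of untranslated regions. Long non-coding RNAs of plants are known for low levels and for expression in few organs or cell types. Roots take up water and ions and meet the microbes of the soil, leaves carry photosynthesis and, in this genus, the salt glands, and stems carry the vascular tissue between them. The sources used here do not say what the prefix stands for, and the members are named by identifier only. Sequences, positions and functions of the members were not used here, and reads that near copies share could not be assessed. Since transcript lengths were not used either, levels are compared within a transcript and never between transcripts.

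In the humid seedlings, the values that chose the members were largest for roots. The log2 ratio ranged from 3.48 to 7.19 among root members, from 1.82 to 6.47 among leaf members and from 1.85 to 3.17 among stem members. The medians were 4.22, 2.31 and 2.07. The last leaf member inside the rule was non_cod_Ag_26198 and the first row outside was non_cod_Ag_46322, both at 1.82. For stems the pair was non_cod_Ag_13484 at 1.85 and non_cod_Ag_26671 at 1.84, and for roots non_cod_Ag_8356 at 3.48 and non_cod_Ag_33711 at 3.47. The edges of the lists are therefore gradual. The humid mean in the own organ ranged from 2.86 to 118 CPM among leaf members, from 2.64 to 81.2 CPM among stem members and from 10.7 to 162 CPM among root members.

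**Figure D1:**
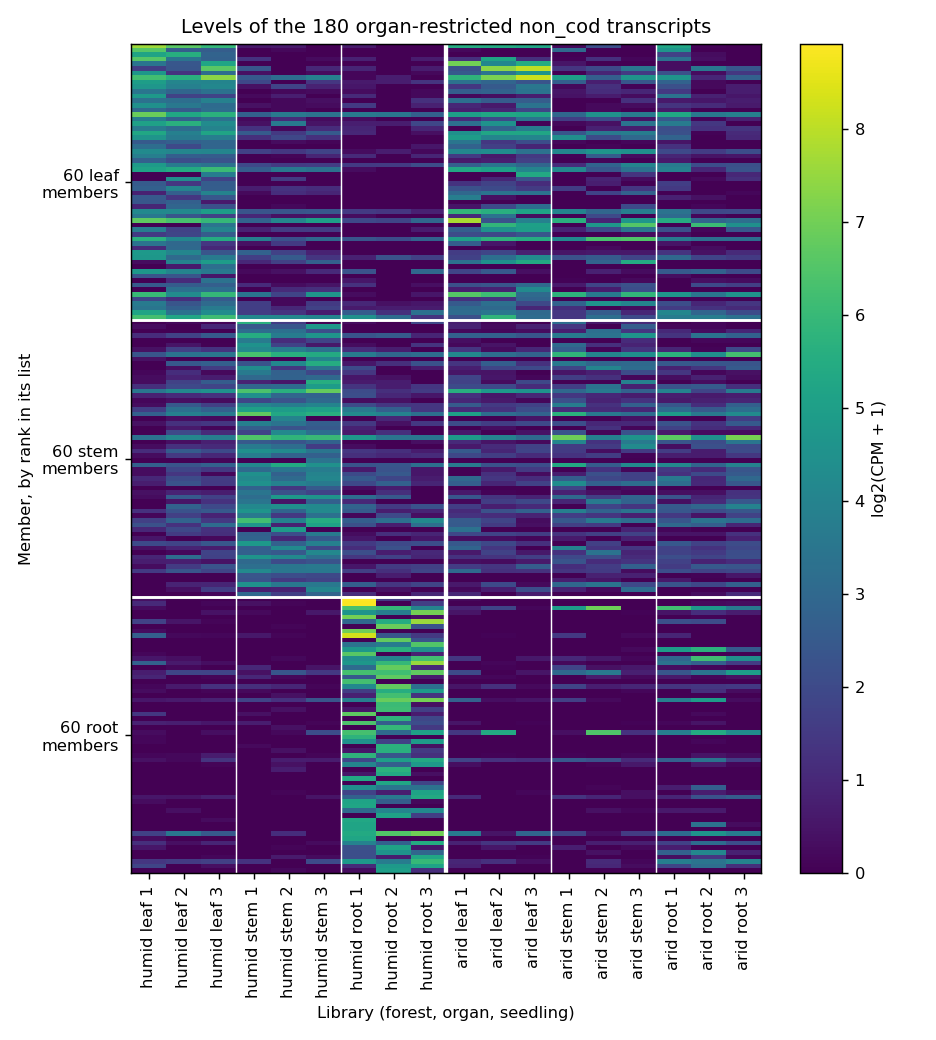
Levels of the 180 members as log2(CPM + 1), 1 row per member in the order of its rank and 1 column per library, with white lines between the lists and the groups. Humid libraries chose the members, so the bright blocks on the left are built in. In the arid libraries on the right the leaf block is still visible, the stem block is dimmer and most root rows are dark.

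How evenly the 3 humid seedlings shared a member differed between the lists. Of the 60 root members, 35 had over 90% of their summed humid root level in 1 library, 17 of them in humid root 1, 16 in humid root 2 and 2 in humid root 3. The same held for 5 of the leaf members, 4 of them in humid leaf 3 and 1 in humid leaf 1. Among stem members there were 7, with 4 in humid stem 3, 2 in humid stem 2 and 1 in humid stem 1. The median share of the highest library was 93.2% in the root list, 53.1% in the leaf list and 51.8% in the stem list. A level of at least 1 CPM in all 3 humid libraries of the own organ was found for 49 leaf, 49 stem and 27 root members. Most of the root list thus names transcripts that were far higher in 1 humid root library than in the others. They were not all confined to it. non_cod_Ag_48919 was counted 2961, 13 and 12 times in humid roots 1, 2 and 3, and non_cod_Ag_8416 0, 355 and 25 times. Among candidates whose humid mean reached that of the lowest member, such concentration was found for 3.63% in root, 0.449% in leaf and 0.598% in stem. The rule acted on the same humid levels, so nothing is read from the difference to these shares.

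**Figure D2:**
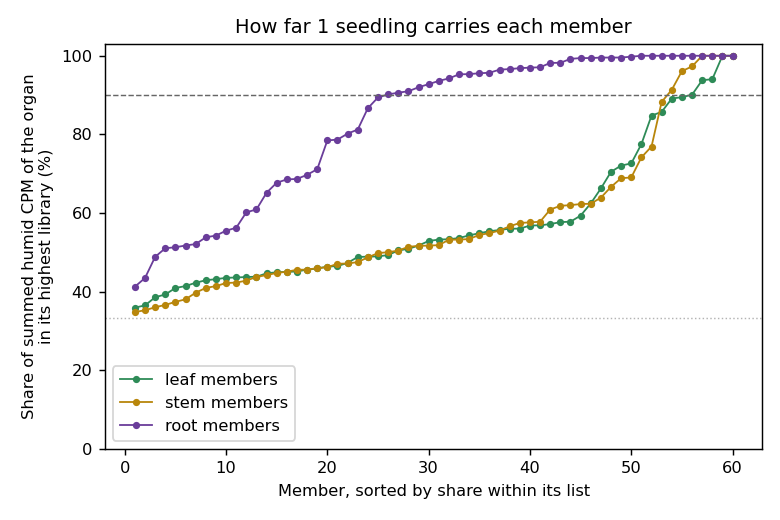
Share of the summed humid CPM of the own organ that fell in its highest library, for each member of the 3 lists sorted by that share. The dashed line marks 90% and the dotted line equal shares. Of the root members 35 lie above the dashed line, against 5 of the leaf and 7 of the stem members.

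The arid seedlings show how far the same transcripts marked the same organ elsewhere. The log2 ratio of the rule was recomputed from the arid means for all 60 members of each list. Its median was 0.99 for leaf, 0.22 for stem and 0 for root members, while over all 17817 candidates it was -0.29, -0.21 and -0.15. A value above 1 was found for 30 leaf, 12 stem and 14 root members, beside 1.32%, 7.48% and 2.96% of the candidates. When the 60 largest ratios of the 17817 candidates were taken from the arid libraries instead, 18 of the leaf members, 0 of the stem members and 7 of the root members were among them. The cut was not alike between organs, since values above 1 were commonest among the candidates in stem. The largest value of a stem member, 1.86, fell outside it. The label organ-restricted therefore held in the arid seedlings for part of the leaf list and for few stem and root members, and the lists are named here by the humid organ that chose them.

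**Figure D3:**
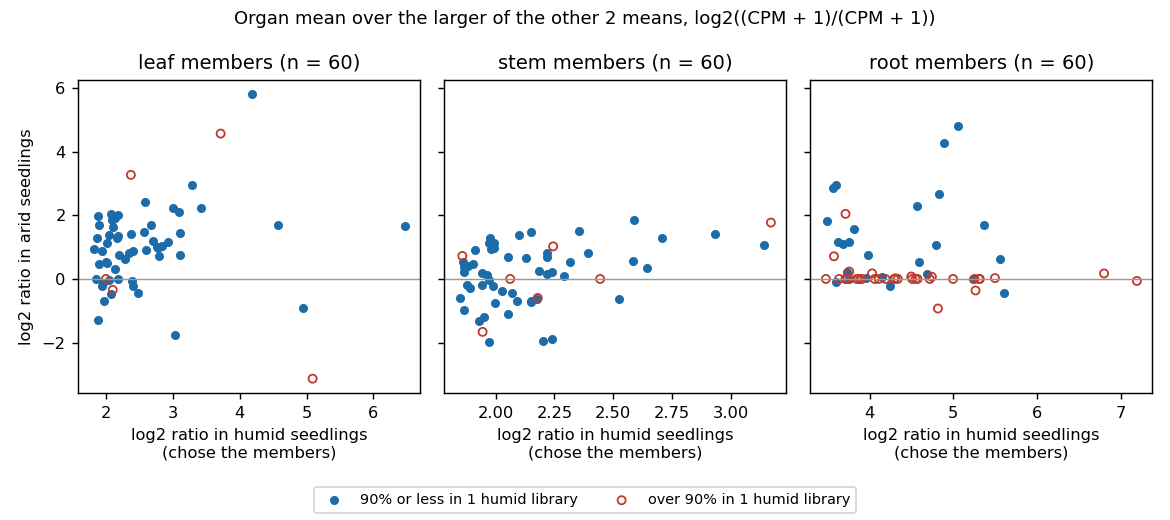
Log2 ratio of the organ mean to the larger of the other organ means, with 1 CPM added, in humid seedlings (x axis) and in arid seedlings (y axis), 1 point per member. Open red circles are members with over 90% of their humid level in 1 library. In the root panel most of these lie at or near 0 in the arid seedlings.

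The highest arid mean lay in the own organ for 44 leaf members, where 26.2% of candidates had theirs. It lay in the own organ for 35 stem members, beside 34.8% of candidates, and for 29 root members, beside 38.3%. No read in any of the 9 arid libraries was counted for 2 leaf, 2 stem and 25 root members, beside 0.685% of candidates. Of the 25 silent root members, 23 were among the 35 that rested on 1 humid library. All 3 arid libraries of the own organ lay above the 6 others for 13 leaf members (background 2.15% of candidates), 4 stem members (2.25%) and 8 root members (4.5%). Some of these separations rest on single reads, since a level of 0 in 6 libraries is exceeded by 1 read in each of 3. Leaf members numbered 22 without arid leaf 3, beside 4.25% of candidates under the same omission. Stem members numbered 8 without arid stem 1 (3.87%) and 13 without arid stem 2 (6.91%). Root members numbered 15 without arid root 1 (8.76%) and 13 without arid root 3 (6.41%). Each omission also makes the criterion easier to meet.

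The test between arid organs was the quasi-likelihood test of edgeR on the 9 arid libraries. It called few transcripts of any kind at a Benjamini-Hochberg adjusted p under 0.05. Of 38268 tested, 3 were called between leaf and stem (0.00784%), 241 between leaf and root (0.63%) and 0 between stem and root (0%), with 4293, 5602 and 5512 at an unadjusted p under 0.05. DESeq2 called 1340 (3.5%), 2823 (7.38%) and 2349 (6.14%). With the seedling as a block, which pairs the organs of 1 plant, edgeR called 19 (0.0496%), 1320 (3.45%) and 129 (0.337%). No member was called by edgeR as higher in its own arid organ than in both others, and no other tested transcript was in any of the 3 organs (0%). An unadjusted p under 0.05 in both comparisons was found for 10 leaf, 5 stem and 5 root members, beside 1.52%, 1.96% and 2.36% of tested transcripts. DESeq2 called 6, 0 and 5, beside 0.332%, 0.828% and 0.998%. The block called 1, 0 and 0, beside 0.00784%, 0.0183% and 0.081%. A fit of all 18 libraries called 74 transcripts between arid leaf and stem (0.181%, with 0.103% higher in leaf and 0.0782% in stem), 1438 between leaf and root (3.52%, 1.91% in leaf and 1.61% in root) and 602 between stem and root (1.47%, 0.58% in stem and 0.892% in root). That fit called 1 and 10 leaf members above arid stem and root, 0 and 0 stem members above leaf and root, and 4 and 2 root members above leaf and stem, but it draws its spread from the humid libraries that chose the members. The filter on low counts left 48 leaf, 47 stem and 15 root members to test, and only these could be called. It used the arid counts, so a member can pass it through the arid organ where it is high.

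Summed over the list, leaf members had overlapping levels in the leaves of both forests. Their 60 levels added up to 1186 ± 341 CPM in humid leaves and 1055 ± 141 CPM in arid leaves (SD, n = 3 in each group). The values in arid leaves 1, 2 and 3 were 926, 1034 and 1205 CPM, all within the humid range of 841 to 1523 CPM. The sum does not stand for most members, since the median member reached 54.3% of its humid leaf mean in arid leaves. A higher mean in arid than in humid leaves was found for 19 of the 60 members. In arid stems the sum was 271, 282 and 501 CPM and in arid roots 380, 165 and 137 CPM, each above the highest value of that organ in the humid forest, which was 152 CPM in stems and 68.2 CPM in roots. The contrast between organs was thus smaller in the arid seedlings. All transcripts with the prefix together took 14.4%, 12.4% and 17% of the reads in arid stems 1, 2 and 3. In humid stems 1, 2 and 3 they took 10.2%, 8.08% and 9.22%. How much of the higher sum of leaf members in arid stems goes with this was not tested. The median member was in arid root 1 at 75% of its level in the own leaf, against 11.8% in arid root 2 and 14.4% in arid root 3. Arid root 1 is also the library in which leaf transcripts without the prefix were high, and the part of this in the members' levels was not tested. Fewer cells of a type and less RNA per cell cannot be told apart in such bulk samples. The humid levels chose the members, so a lower arid level in the own organ and a higher one in the others are partly built in, and no test between forests was made.

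The leaf member with the largest arid log2 ratio, 5.81, was non_cod_Ag_21634, named after its values were seen, as were all members called in 1 comparison. It was at 10.1, 4.34 and 37.2 CPM in humid leaves 1, 2 and 3 and had no read in any humid stem or root. In arid leaves it was at 128, 16.4 and 45.5 CPM, in arid stems at 0.42, 0 and 0 CPM and in arid roots at 0.254, 0 and 0 CPM. Every leaf library of both forests lay above every other library. It was called between arid leaf and root, at 9.76 on the log2 scale (SE 1.45, edgeR adjusted p 0.0315), which depends on the prior count since 2 of the roots are at 0. Against arid stem its edgeR adjusted p was 0.122. With the seedling block both comparisons were called, at adjusted p-values of 0.00315 against root and 0.00898 against stem, and it was the only member called against both. Without the block, the call against root was lost when any 1 arid leaf or root was omitted.

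non_cod_Ag_48002 was highest in leaves and was also counted in every stem and root. It was at 18, 17.2 and 29.8 CPM in humid leaves, 4.09, 4.05 and 4.35 CPM in humid stems and 1.88, 1.63 and 0.754 CPM in humid roots. In the arid forest the leaves were at 59, 48.9 and 34.6 CPM, the stems at 15.4, 6.68 and 13.1 CPM and the roots at 9.53, 2.85 and 2.96 CPM. The order leaf, stem, root held in every seedling of both forests. The log2 fold change between arid leaf and root was 3.29 (SE 0.54, edgeR adjusted p 0.0377), and that between arid leaf and stem was 1.9 (SE 0.5, edgeR adjusted p 0.234). The call was lost without any 1 arid leaf, arid root 2, arid root 3 or arid stem 3.

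non_cod_Ag_20282 was called between arid leaf and root as well, but not as a leaf transcript. Its arid leaves were at 16.4, 19.1 and 9.4 CPM, its arid stems at 16.4, 24.1 and 21.2 CPM and its arid roots at 2.92, 1.98 and 3.29 CPM. Leaf and stem overlapped, and both lay above all roots, so it was shared by the arid shoot. The log2 fold change to root was 2.54 (SE 0.41, edgeR adjusted p 0.0377), and that to stem was -0.6 (SE 0.39, edgeR adjusted p 0.6). In the humid forest the leaves had been at 18.2, 15.9 and 15.7 CPM and the stems at 2.29, 1.71 and 2.47 CPM, without overlap. The call was lost without any 1 arid leaf or root or arid stem 3.

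In all, 3 leaf members were called higher than in arid root, where 0.233% of tested transcripts were, and 0 higher than in arid stem (background 0%). The filter, which used the same arid counts, left 48 of the 60 leaf members to test. At an unadjusted p under 0.05 the counts were 20 and 18, beside 7.81% and 5.01%, and DESeq2 called 16 and 7, beside 3.9% and 1.34%. With the seedling block they were 9 and 1, beside 1.84% and 0.0131%.

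The leaf members with the largest humid ratios did not all keep their organ. non_cod_Ag_47394, at the head of the list, had 197, 99 and 59.5 CPM in humid leaves and at most 0.553 CPM in any humid stem or root. Arid leaves had 44.3, 41.5 and 36.5 CPM, arid stems 0.14, 3.42 and 0.0599 CPM and arid roots 36.7, 0.0549 and 0 CPM. Arid root 1 was thus near the level of the arid leaves, while arid roots 2 and 3 were near 0. The fitted difference of arid leaf to root was 1.85 on the log2 scale (SE 1.81, edgeR adjusted p 0.738). Without arid root 1 it was 9.89, over a range of 1.26 to 9.89 when 1 arid library was omitted.

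non_cod_Ag_38262 and non_cod_Ag_7646 were all but absent from arid leaves. non_cod_Ag_38262 was counted 859, 37 and 123 times in humid leaves and 1, 0 and 0 times in arid leaves. Its other arid reads came from seedling 1 alone, with 106 in the stem and 193 in the root. non_cod_Ag_7646 was counted 330, 340 and 147 times in humid leaves, never in arid leaves or stems and 19, 4 and 0 times in arid roots. Both are high in humid leaves and not in arid ones, with no overlap between the forests. non_cod_Ag_44977 was at 93.2, 9.79 and 5.74 CPM in humid leaves and 1.35, 35.8 and 1.31 CPM in arid leaves, so that 1 seedling carried most of it in each forest. Its log2 fold change of arid leaf to root was 2.21 (SE 1.83, edgeR adjusted p 0.673), which turned to -1.17 without arid leaf 2.

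Members whose leaf preference was lowest in the arid fit were non_cod_Ag_2361, non_cod_Ag_29753 and non_cod_Ag_16996. non_cod_Ag_2361 was at 11.8, 4.06 and 7.38 CPM in humid leaves and 2.13, 0.156 and 1.88 CPM in humid stems. Arid leaves had 4.71, 8.53 and 2.8 CPM and arid stems 5.95, 22.4 and 15.3 CPM, with the stem above the leaf in each arid seedling. The fitted difference of arid leaf to stem was -1.58 on the log2 scale (SE 0.69, edgeR adjusted p 0.433), so the reversed order did not pass the test.

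non_cod_Ag_29753 was at 25.4, 15.4 and 11.1 CPM in humid leaves and 3.87, 0 and 7.09 CPM in humid roots, while arid leaves had 2.56, 4.65 and 0.298 CPM and arid roots 4.7, 6.04 and 3.07 CPM. In each arid seedling the root lay above the leaf, the fitted leaf to root difference being -0.82 on the log2 scale (SE 1.11, edgeR adjusted p 0.833). non_cod_Ag_16996 had 33.3, 53.9 and 44.8 CPM in arid leaves and 17.9, 78.6 and 88.1 CPM in arid stems, which the fit put at -0.64 on the log2 scale (SE 0.55, edgeR adjusted p 0.706), and the organs overlapped.

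Some leaf members were confined to certain seedlings. non_cod_Ag_33858 was counted 234 times in humid leaf 3 and in no other humid library. In the arid forest it was counted 0, 906 and 552 times in leaves 1, 2 and 3, 0, 303 and 1510 times in stems and 0, 1199 and 194 times in roots. Seedlings 2 and 3 carried it in every organ and seedling 1 in none. non_cod_Ag_8497 was counted 297 times in humid leaf 3, again in no other humid library, and among the arid libraries in seedling 3 only, with 689, 26 and 9 reads in leaf, stem and root. non_cod_Ag_8454 was counted 4 and 200 times in humid leaves 2 and 3 and never in the other 16 libraries.

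**Figure D4:**
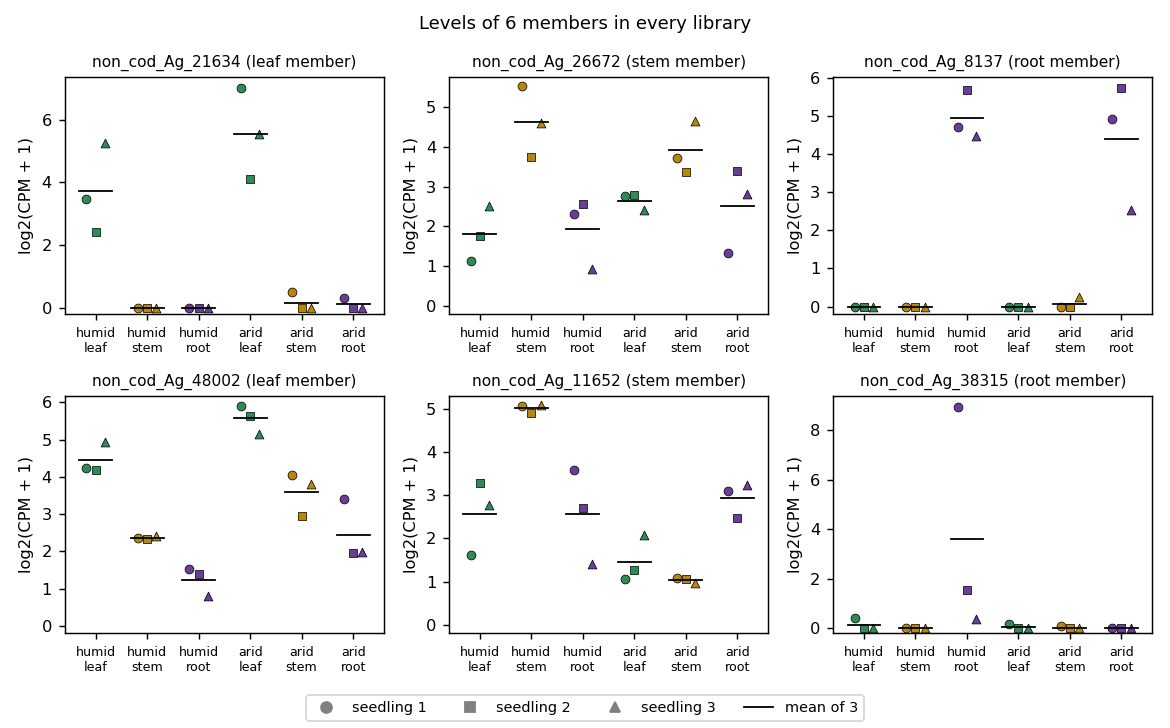
Levels of 6 members as log2(CPM + 1) in every library, with 1 symbol per seedling, colour by organ and a bar at the mean of the 3 values of a group. non_cod_Ag_21634 and non_cod_Ag_48002 are highest in leaves of both forests, non_cod_Ag_26672 is highest in stems of both by its means, non_cod_Ag_11652 is highest in humid stems, non_cod_Ag_8137 is found in roots of both forests and non_cod_Ag_38315 in humid root 1.

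As a list, stem members had lower sums in stems of the arid forest, on values that no test between forests covers. The humid stem levels chose these members, so a lower arid level is partly built in. Their sum was 920 ± 218 CPM in humid stems and 315 ± 142 CPM in arid stems (SD, n = 3 in each group). Arid stems 1, 2 and 3 had 476, 208 and 262 CPM, all below the humid stems, whose lowest value was 685 CPM. Arid roots 1, 2 and 3 had 328, 155 and 406 CPM, so arid stems and roots overlapped. Arid leaves had 247, 127 and 111 CPM and overlapped with the arid stems as well. The median member reached 20.8% of its humid stem mean in arid stems, and 3 of 60 members had a higher mean in arid than in humid stems. The median member was in arid roots 1, 2 and 3 at 78.7%, 86.2% and 100% of its level in the own stem, with 0.1 CPM added to both. Stem transcripts without the prefix were at 50.3%, 6.33% and 31.4% there, and the part of this in the members' levels was not tested.

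No stem member was called by edgeR between arid stem and leaf or between arid stem and root, where 0.00784% and 0% of tested transcripts were called as higher in stem. The filter, which used the same arid counts, left 47 of the 60 stem members to test. At an unadjusted p under 0.05, 13 were higher and 1 lower than in arid leaf, beside 6.2% of tested transcripts that were higher in stem and 5.01% that were lower. In the comparison with arid root 9 were higher and 1 lower, beside 7.59% and 6.81%. DESeq2 called 3 higher than in leaf (background 2.16%), and against root 3 higher (3.25%) and 1 lower (2.89%). With the seedling block the calls were 0 and 0, beside 0.0366% and 0.225%.

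Of the 4 stem members with the largest humid ratios, non_cod_Ag_26672 had the most even levels across the arid stems. It was at 44.7, 12.5 and 23.3 CPM in humid stems, 1.21, 2.38 and 4.73 CPM in humid leaves and 3.98, 4.89 and 0.905 CPM in humid roots. Arid stems had 12.2, 9.27 and 24.1 CPM, arid leaves 5.79, 5.86 and 4.28 CPM and arid roots 1.52, 9.44 and 6.03 CPM. All arid stems lay above all arid leaves, and arid stem 2 lay just below arid root 2. Its log2 fold change was 1.66 to leaf (SE 0.65, edgeR adjusted p 0.389) and 1.58 to root (SE 0.65, edgeR adjusted p 0.309).

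non_cod_Ag_47207, at the head of the stem list, rested on humid stem 1. It was at 49.8, 2.02 and 0 CPM in humid stems and 8.4, 0.501 and 1.08 CPM in arid stems, with at most 0.673 CPM in any arid leaf or root. It did not pass the filter on low counts. non_cod_Ag_32552 was at 4.58, 4.2 and 25.2 CPM in humid and 1.75, 0 and 5.21 CPM in arid stems, where stem 2 had no read. Its log2 fold change of arid stem to leaf was 2.14 (SE 1.38, edgeR adjusted p 0.597), and 0.58 without arid stem 3.

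non_cod_Ag_13470 had no read in any humid leaf or root and 7.86, 8.72 and 3.36 CPM in humid stems. In the arid forest it was at 0.7, 8.26 and 1.68 CPM in stems, 0.135, 0.127 and 0.238 CPM in leaves and 1.02, 0.22 and 0.877 CPM in roots. It was thus detected in all arid libraries, with arid stem 1 below arid roots 1 and 3. The log2 fold change of arid stem to root was 2.63 (SE 1.04, edgeR adjusted p 0.292), and 1.0 without arid stem 2.

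The stem members with the lowest stem preference in the arid fit were non_cod_Ag_11652, non_cod_Ag_39353 and non_cod_Ag_12593, and each was lower in stem than in root in all 3 arid seedlings. non_cod_Ag_11652 was steady at 32.7, 29.1 and 33 CPM in humid stems, above humid leaves at 2.08, 8.81 and 5.87 CPM and humid roots at 11.1, 5.55 and 1.66 CPM. Arid stems were at 1.12, 1.09 and 0.959 CPM, arid leaves at 1.08, 1.4 and 3.21 CPM and arid roots at 7.62, 4.55 and 8.44 CPM. Arid roots lay above all arid stems and leaves. The log2 fold change of arid stem to root was -2.49 (SE 0.62, edgeR adjusted p 0.133), and DESeq2 gave an adjusted p of 0.00164.

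non_cod_Ag_39353 had 17, 20.2 and 17.9 CPM in humid stems, 0, 2.59 and 1.62 CPM in arid stems and 4.7, 6.69 and 14.4 CPM in arid roots, and the fitted stem to root difference was -2.34 on the log2 scale (SE 1.13, edgeR adjusted p 0.377). non_cod_Ag_12593 had 26.4, 5.76 and 13.6 CPM in humid stems and 0, 2.25 and 0 CPM in arid stems, where 2 libraries had no read. Arid leaves and roots of non_cod_Ag_12593 were at 4.44, 2.8 and 1.37 CPM and 4.45, 2.41 and 3.18 CPM, so the organ that had been highest was the lowest in each arid seedling. The fitted change of stem to root was -1.91 on the log2 scale (SE 1.43, edgeR adjusted p 0.574), and -8.37 without arid stem 2, which leaves both stems at 0.

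The 4 stem members whose arid stems lay above all other arid libraries were non_cod_Ag_25642, non_cod_Ag_30004, non_cod_Ag_26656 and non_cod_Ag_496, named after their values were seen. non_cod_Ag_496 had 13.6, 6.01 and 9.65 CPM in arid stems, 1.08, 3.63 and 5.83 CPM in arid leaves and 4.32, 3.18 and 4.27 CPM in arid roots, beside 23.6, 6.38 and 17.4 CPM in humid stems. The gap between arid stem 2 and arid leaf 3 was small, at 6.01 against 5.83 CPM. non_cod_Ag_25642 had 7.56, 1.34 and 0.839 CPM in arid stems and no read in arid roots. For non_cod_Ag_26656 the separation from 0 rested on 1 read in arid stem 2.

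Summed over the list, root members had lower levels in every arid root than in any humid root. The humid root levels chose these members, and 35 of the 60 rest on 1 humid library. A lower arid level is therefore partly built in, and no test between forests was made. Their sum was 2113 ± 647 CPM in humid roots and 224 ± 108 CPM in arid roots (SD, n = 3 in each group). Humid roots 1, 2 and 3 had 2824, 1953 and 1561 CPM, and arid roots 1, 2 and 3 had 199, 342 and 131 CPM, without overlap. The median member reached 0.239% of its humid root mean in arid roots, and none of the 60 had a higher mean in arid than in humid roots. The median arid root mean was 0.125 CPM, less than the 0.165 to 0.381 CPM that a count of 0 allows there. The 0.239% therefore gives no fold change. Root transcripts without the prefix, which were also picked by their humid root means, were low in arid roots too. Their medians were the 7.09%, 26% and 8.5% given above, and the part of this in the members' levels was not tested. Arid stem 2 summed to 230 CPM, above arid roots 1 and 3, and arid stems 1 and 3 to 57.3 and 10.1 CPM. Of the 27 root members at 1 CPM or more in all humid roots, 22 had their highest arid mean in root, 4 in stem and 1 had no arid read, and the median arid root level was 15.6% of the humid one.

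The first and second root members by ratio were each counted almost wholly in humid root 1. non_cod_Ag_38315 was counted 4364, 6 and 2 times in humid roots 1, 2 and 3, which is 482, 1.96 and 0.302 CPM. In the other 15 libraries it was counted 5 times in all and never in an arid root. non_cod_Ag_21800 was counted 4217, 0 and 14 times in humid roots and 0, 3 and 2 times in arid roots. The leaf and stem of the same humid seedling held 10 and 2 reads of it, and humid root 2 held none.

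The 17 members of humid root 1 had a median count of 687 there, from 328 to 4364, and 9 of them had no read in any arid library. The 16 members with such a share in humid root 2, the shallowest library, had a median count of 176, from 94 to 355. No arid read was found for 14 of them. No read in the leaf or stem of the same seedling was counted for 7 of the former and 7 of the latter. non_cod_Ag_8356, the last member inside the rule, was counted 2, 94 and 8 times in humid roots, and non_cod_Ag_33711, the first outside, 0, 92 and 2 times. Neither had a read in any arid library.

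non_cod_Ag_31189 was found in all 3 humid roots at 23.5, 13.1 and 133 CPM, and in arid roots at 0.381, 1.26 and 0.658 CPM. The other arid libraries held at most 0.404 CPM, so it was low everywhere in the arid forest. It did not pass the filter on low counts. non_cod_Ag_32665, with 79.9, 61 and 14.9 CPM in humid roots and no read in any humid stem, was not restricted to roots in the arid forest. There it was at 74.3, 25.1 and 10.7 CPM in roots, 29.8, 121 and 0 CPM in stems and 0.808, 2.67 and 0.119 CPM in leaves. The highest of all its values was in arid stem 2 and arid stem 3 had none. Its log2 fold change of arid root to stem was -0.68 (SE 1.55, edgeR adjusted p 0.875), which turned to 1.14 with the seedling block and to 1.27 without arid stem 2.

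non_cod_Ag_32091 and non_cod_Ag_46258 had, with non_cod_Ag_32665, the lowest root preference in the arid fit. non_cod_Ag_32091 was at 77.2, 7.18 and 34.1 CPM in humid roots and at most 3.26 CPM in humid shoots. In the arid forest it was at 13, 42.7 and 19.5 CPM in roots, 0.28, 87.3 and 1.44 CPM in stems and 1.75, 42.1 and 0 CPM in leaves. Seedling 2 carried it in every organ, with the stem highest, and the log2 fold change of root to stem was -0.47 (SE 1.94, edgeR adjusted p 0.937). That sign was not stable, since the value was 2.67 with the seedling block (edgeR adjusted p 0.322) and ranged from -1.18 to 4.68 when 1 arid library was omitted, the highest without arid stem 2. non_cod_Ag_46258 was at 16.8, 109 and 8.45 CPM in humid roots and 1.52, 1.7 and 1.86 CPM in arid roots, beside 2.59, 0.668 and 0.959 CPM in arid stems, with a fitted root to stem difference of 0.14 on the log2 scale (SE 0.86, edgeR adjusted p 0.959).

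Against these, a small set marked roots of both forests. non_cod_Ag_8137 was at 25.3, 49.9 and 21.3 CPM in humid roots and 29.3, 52.1 and 4.82 CPM in arid roots. It had no read in any leaf of either forest or in any humid stem, and 3 reads in arid stem 3 were its only ones outside roots. It was called between arid root and leaf (edgeR adjusted p 0.043), at a fitted log2 fold change of 11.5 (SE 1.74) that depends on the prior count. Against arid stem the edgeR adjusted p was 0.0962. The call against leaf was lost without the filter on low counts and without any 1 arid leaf or root or arid stem 3. It was the only root member called against leaf, where 0.397% of tested transcripts were higher in root, and 0 were called against stem (background 0%). Only 15 of the 60 root members passed the filter and were tested. At an unadjusted p under 0.05, 10 of these were higher than in leaf and 8 higher than in stem. The shares over tested transcripts were 6.83% and 6.81%. The filter used the same arid counts, and a member high in arid roots alone can pass it. The difference to these shares is therefore partly built in, and nothing is read from it.

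With the seedling block edgeR called 3 root members against arid leaf (background 1.6%), non_cod_Ag_8137, non_cod_Ag_39168 and non_cod_Ag_46226, and 0 against arid stem (0.112%). DESeq2 called 6 against leaf and 7 against stem, beside 3.48% and 2.89%. non_cod_Ag_39168 was at 25.2, 60.03 and 186 CPM in humid and 9.4, 5.54 and 1.97 CPM in arid roots, with at most 0.14 CPM in other arid libraries. non_cod_Ag_46226 had 3.43, 23.2 and 6.64 CPM in humid and 5.84, 16.4 and 0.767 CPM in arid roots, and outside roots 4 reads in arid stem 2 only. Both were chosen after their values were seen. Of root members that kept much of their level, non_cod_Ag_21879 was at 6.86, 71.4 and 20.1 CPM in arid roots and 20.01, 14.7 and 72.7 CPM in humid roots, and non_cod_Ag_19017 at 13.3, 9.71 and 14.7 CPM in arid and 27.3, 12.4 and 61.9 CPM in humid roots. Arid root 1, where leaf transcripts were high, was not the lowest of the 3 for non_cod_Ag_8137 or non_cod_Ag_39168 and was for non_cod_Ag_21879.

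The same rule applied to the 29854 transcripts without the prefix gave lists to set beside these. They held 20 root members with over 90% of the humid level in 1 library, 9 leaf and 3 stem members. No read in the 9 arid libraries was counted for 15 root members and for 0 leaf and 0 stem members. In the arid seedlings the median log2 ratio of the lists without the prefix was 1.49 for leaf, 0.64 for stem and 0.05 for root. The arid libraries of the own organ lay above the 6 others for 12, 11 and 19 members, beside 4.53%, 1.19% and 7.91% of the candidates without the prefix. The lists with the prefix had 13, 4 and 8, beside the 2.15%, 2.25% and 4.5% given above. A low arid level was also found in the root list without the prefix, whose median was 3.88% of the humid root mean. Both root lists were chosen by their humid root levels, so this is partly built in for both. Whether the lists differ was not tested, since transcripts of 1 library are not replicates, and the values that chose them differ, with medians of 4.35, 2.89 and 5.4.

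The identifier numbers of the members, which the rule did not use, were not spread alike. Numbers run from 1 to 48992 over both kinds of transcript, with 0 repeats. In steps of 1000 numbers, the 60 root members fell in 19 of 49 steps, the leaf members in 29 and the stem members in 27. The step from 8001 to 9000 held 13 root members, that from 32001 to 33000 held 8, that from 39001 to 40000 held 7 and that from 21001 to 22000 held 6. Transcripts that are not members were then counted as root-skewed when their humid root mean was at least 1 CPM and at least 10-fold that of both humid shoot organs. Of the 47641 transcripts that are not members, 1.61% were. In these 4 steps the shares were 14.8%, 11.3%, 6.55% and 7.78%, and both kinds of transcript took part. In the step from 8001 to 9000, 71 of 357 transcripts without the prefix were root-skewed. These 4 steps hold 34 of the 60 root members. Of all root members, 48 fell in steps whose share was above 1.61% and 12 in steps below it. Steps differ in how many transcripts with the prefix they hold. The candidates per step were not counted, so the 34, 48 and 12 have no background. Root skew was taken from the same humid libraries that chose the members. The match between members and root-skewed transcripts is therefore not independent of the rule, and it was not tested. What orders the numbers is not given in the sources used here, and the steps were named after their values were seen.

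**Figure D5:**
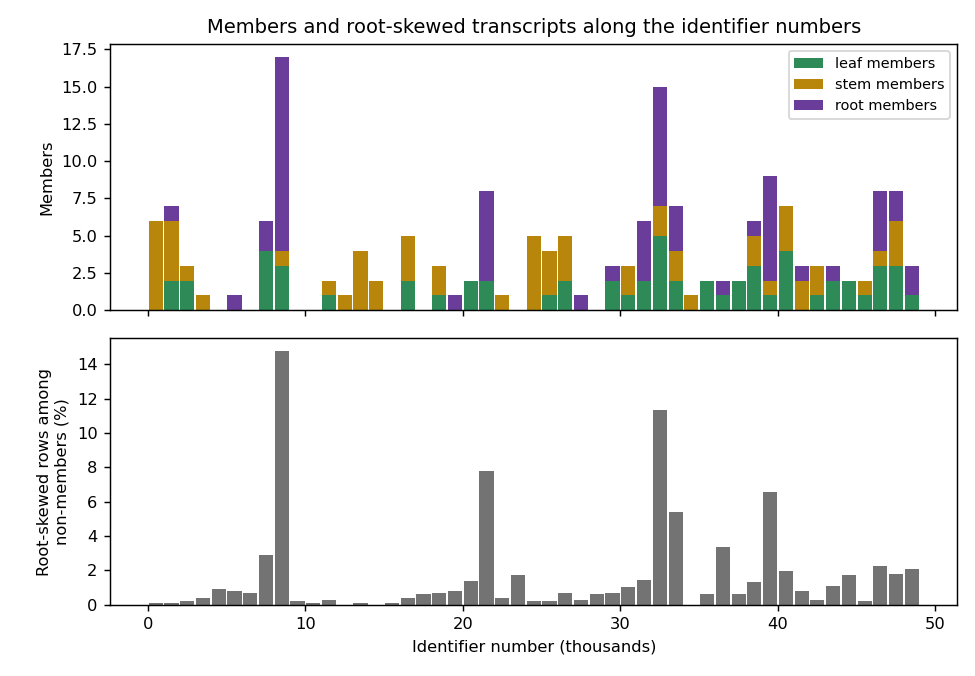
Members of each list (top, stacked counts) and percent of root-skewed transcripts among those that are not members (bottom) in steps of 1000 identifier numbers. The steps from 8001 to 9000 and from 32001 to 33000 stand out in both, with 13 and 8 root members and shares of 14.8% and 11.3%. Both panels rest on the same humid libraries.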

How the data were processed

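The authors deposited raw read counts per transcript, in 1 table and in 1 file per library with equal values. The table's name describes uniquely mapped reads, and the submitters' processing notes list Bowtie 0.12.2 and edgeR without their roles. Library preparation used 0.5 µg of total RNA per the labels' protocols. Neither the transcript reference nor the counting program is named in these sources. The members and lists were chosen with earlier results of these data known.

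Levels are counts divided by the library total. The organ contrasts were fitted with edgeR 4.0.16 under R 4.3.3 on the 9 arid libraries only (trimmed mean of M-values factors, minimum count 10, minimum total count 15, 1 mean per organ, 6 residual degrees of freedom), with Benjamini-Hochberg adjustment over the 38268 transcripts tested and a threshold of 0.05. The biological coefficient of variation was 64.3%. Nothing says that these seedlings sample each forest at random. The p-values set differences between organs against the spread between 3 seedlings, and the fit without the block does not pair the organs of 1 seedling. In simulated arid counts over 36376 transcripts, the test recovered 48 of 100 transcripts changed 16-fold and 1 of 100 changed 4-fold between leaf and stem, and 42 and 1 between leaf and root. DESeq2 1.42.0, other scalings, no filter, all 18 libraries and omission of single libraries were alternatives. Plots were drawn with matplotlib 3.10.9.

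The series' design text says that 3 seedlings of each forest gave all 3 organs, and library numbers were read as seedlings. Deviations from group means of arid libraries of 1 seedling correlated across transcripts at a median r of 0.306 (0.173 to 0.404, 9 pairs, all over 0.1), so the fit with the seedling as a block is given where it changes a call, a sign or a count of calls. Between humid leaf and root, r was -0.0703, 0.177 and -0.0193 for numbers 1, 2 and 3. The other humid pairs had r from 0.143 to 0.317. The pairing of humid leaf and root by number therefore rests on the labels and the design text. Named were, per list, the 4 members with the largest ratio, up to 4 called against both arid organs (none was), the 3 with the lowest smaller log2 fold change among those tested, and the rows at the threshold. Other names were chosen after their values were seen. Replicate pairs differed by more than sampling noise, at a chi-square per degree of freedom of 18.3 or more.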

Additional observations from a re-analysis of the deposited data

Results flagged for a closer look

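Among the named transcripts, 5 had an organ difference with opposite signs in every seedling of the 2 forests. The humid direction is built into the choice of members, and the difference between forests was not tested. All 5 were named for the lowest own-organ preference in the arid fit, so their arid direction is partly built in too. Values are mean differences of log2(CPM + 1) over 3 arid seedlings. non_cod_Ag_2361 was lower in leaf than in stem by a mean of -1.23, and non_cod_Ag_29753 lower in leaf than in root at -0.88. non_cod_Ag_11652 was lower in stem than in root at -1.9 and non_cod_Ag_39353 likewise at -2.06. non_cod_Ag_12593 was lower in stem than in leaf at -1.3 and lower in stem than in root at -1.53. Over the whole lists, stem members were higher in stem than in root in all 3 humid seedlings for 52 and in all 3 arid seedlings for 14, and 7 had opposite directions. Between leaf and root the counts for leaf members were 54, 29 and 1. In the same order, they were 52, 34 and 1 for leaf members between leaf and stem. Stem members had 51, 24 and 4 between stem and leaf. Root members had 37, 13 and 0 against leaf and 38, 12 and 1 against stem. These counts were not taken over all candidates, so whether they exceed a background was not tested.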

How the results depend on the processing

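Counts of calls depended on the test and on single libraries. The alternatives on members called against 1 organ, and the omissions for separated libraries, were added after the data were seen. Under DESeq2, members higher than in both other organs numbered 6 for leaf and 5 for root, against 0, and all tested transcripts called were 1340, 2823 and 2349 between leaf and stem, leaf and root, and stem and root, against 3, 241 and 0. DESeq2 called 7 leaf members above arid stem and 16 above arid root, 3 stem members above each of leaf and root, and 6 and 7 root members above leaf and stem. With all 18 libraries in the fit the members called against both were 1 for leaf and 2 for root. The share of all transcripts called against both was not taken for that fit, so nothing is read from this 1 and 2. The transcripts were 74, 1438 and 602, and the members in single comparisons 1 and 10 for leaf (stem, root) and 4 and 2 for root (leaf, stem). With the replicate block the leaf list had 1 against both, the transcripts were 19, 1320 and 129, and the members 1 and 9 for leaf and 3 for root against leaf. The block changed no other member count. Without the filter 116 transcripts were called between leaf and root, and 0 root members against leaf. Omitting 1 arid library gave 2 to 8, 1 to 476 and 0 to 650 transcripts, 0 to 6 leaf members above root, 0 to 1 root members above leaf and 0 to 1 above stem. The 4 calls of single members were each lost under at least 6 of 9 omissions. Separated members ranged from 13 to 22 for leaf, 4 to 13 for stem and 8 to 15 for root, and members called against both stayed at 0. Log2 fold changes that turned sign, none of them called, were those of non_cod_Ag_32665 (1.14 with the block), non_cod_Ag_32091 (2.67 with the block), non_cod_Ag_44977 (-1.17 to 6.39 over omissions), non_cod_Ag_32665 (-1.67 to 1.27), non_cod_Ag_32091 (-1.18 to 4.68) and non_cod_Ag_46258 (-0.15 to 0.74). Normalization by DESeq2 size factors or upper quartile moved none of these counts by over 1.5 times. The cause of these changes was not tested. With 3 libraries a group, 4-fold changes were rarely recovered in simulated data.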
